A study of Mus musculus with 6 samples.

Results

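Whole-lung RNA of TSPO KO and WT mice was examined for 10 genes of the airway surface: Scgb1a1, Scgb3a1, Scgb3a2, Bpifa1, Bpifb1, Reg3g, Muc1, Muc5b, Pigr and Hp. They were chosen by name, as genes whose products are secreted into or displayed on the airway lining, and each was read from its RefSeq transcript with the largest total count over the 6 libraries. This gave 10 of the 23473 genes in the count table, from 12 RefSeq transcripts, as Scgb3a1 and Bpifb1 have more than 1. All animals were C57BL/6 mice aged 6 to 8 weeks, bred under SPF conditions and without treatment. KO mice lack exons 2 and 3 of Tspo in the whole body, made by breeding floxed mice with mice that carry Cre under the sperm-specific protamine promoter, whereas WT mice have the intact gene. Each of the 3 WT and 3 KO libraries was made from RNA combined from the lungs of 3 mice, which the labels call littermates, so the spread between libraries is that of pools of mice. The sexes of the pooled mice are not given in the labels, and how much airway went with each piece of lung is not stated.

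The conducting airways of the lung are lined by secretory and ciliated cells, and the secretory cells release proteins that coat the epithelium and trap, bind or kill microbes. Secretoglobins are small secreted proteins, of which SCGB1A1 defines the club cell. BPI fold proteins bind lipids of the bacterial wall, REG3 lectins bind peptidoglycan, mucins form the gel and the surface coat, and the polymeric immunoglobulin receptor carries IgA into the lumen. Several of these genes are made mainly in the trachea and large bronchi, others along the whole airway, and some in alveolar cells as well. In bulk tissue, fewer cells of a type and less RNA per cell cannot be told apart.

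The libraries held 9617086 to 11942318 counts over 1 RefSeq transcript per gene. Tspo, the deleted gene, had 156, 153 and 153 CPM (counts relative to the library total, scaled by TMM and expressed on a common scale) in WT and 21.6, 21.7 and 19.7 CPM in KO. Its log2 fold change was −2.87, with a standard error of 0.10 and an adjusted p of 1.42e-07 in edgeR's quasi-likelihood test, so the deleted gene was low in each KO library. A pair of WT libraries stood apart from the rest. In WT library 3, the ribosomal RNA precursor Rn45s made up 11.4% of all counts, compared with 0.224% to 0.427% elsewhere. WT library 2 held RNA that the others nearly lacked. Krt13 and Krt4, keratins of stratified squamous epithelium, had 7053 and 5928 counts there and 5 at most in any other library. Acta1, the actin of skeletal muscle, had 1002 counts there against 5 at most elsewhere, and Ucp1, a protein of brown fat, 378 against 4 at most. These genes were named after their values were seen, and results that rest on WT library 2 are also given without it.

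None of the 10 genes passed the test between TSPO KO and WT lungs. Their KO mean was higher in 10 of 10 cases, where 50.8% of all genes tested had a log2 fold change above 0. The amounts were small: the log2 fold changes (KO against WT) ran from 0.01 for Scgb1a1 to 0.41 for Bpifb1. Their median was 0.21 against 0.00 over all genes tested. The libraries of the genotypes overlapped for every one of the 10. Several of them differed widely between pools of the same genotype. Among the KO libraries the highest was 4.94-fold above the lowest for Bpifa1 and 3.19-fold for Reg3g. Among the WT libraries these ranges were 9.19-fold and 11.5-fold, and 1.28-fold and 1.80-fold without WT library 2.

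With edgeR's quasi-likelihood test, 0 of the 10 passed after Benjamini-Hochberg adjustment over 14802 genes (adjusted p = 0.9999 for each), where 0.00676% of all genes tested were called, Tspo alone. At an unadjusted p under 0.05 there were also 0, with unadjusted p-values from 0.156 to 0.970 in edgeR, where 1.88% of all genes fell below that limit. With DESeq2, with limma-voom and with edgeR's exact test, 0 members passed the adjusted threshold and 0 had an unadjusted p under 0.05. Groups that do not overlap were found for 0 members and for 5.46% of all genes. Exact permutation tests of the difference in mean CPM gave p from 0.2 to 0.9 over the 10 genes (two-sided, n = 3 pools against 3, smallest possible p 0.1), and 0.9 for each after adjustment over the 10. The direction that all 10 shared depended on single libraries, and most on WT library 2. Without WT library 2, 4 were higher and 6 lower in KO, with a median of −0.07. Without WT library 3 or KO library 1, 8 were higher and 2 lower, and without KO library 2, 7 were higher and 3 lower.

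**Figure D1:**
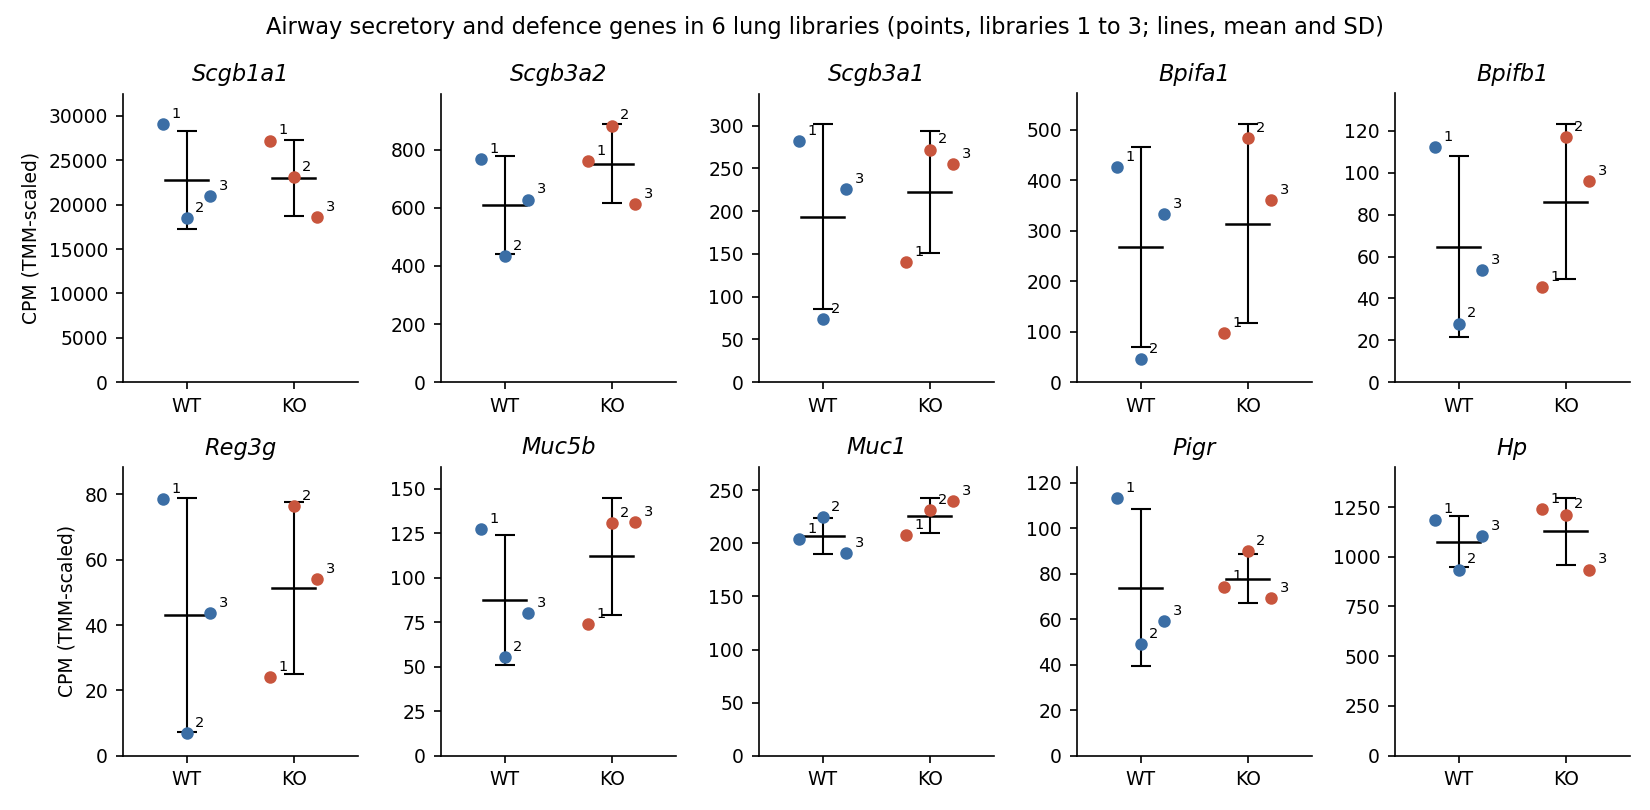
Level of each gene in CPM (y axis, from 0, 1 panel per gene) in the 3 WT and 3 KO libraries (points, labelled by replicate number), with the mean and SD of each genotype as lines. The genotypes overlap in every panel, WT library 2 is the lowest point for 8 of the 10 genes, and the points of Bpifa1 and Reg3g are spread most widely.

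Per kilobase of transcript, the secretoglobin Scgb1a1 stood far above the rest. It averaged 48091 CPM per kilobase over the 6 libraries, followed by Hp at 819, Scgb3a1 at 348, Bpifa1 at 263, Muc1 at 96.6, Reg3g at 61.2, Bpifb1 at 44.4, Pigr at 19.7 and Muc5b at 6.67 CPM per kilobase. The transcript of Scgb3a2 was not matched to a length, and the shortest and longest coding transcripts of the gene give 1238 and 808 CPM per kilobase. Scgb1a1 (38831 to 60998 CPM per kilobase) did not overlap Hp (695 to 920), nor did Hp overlap Scgb3a1 (123 to 471). From Scgb3a1 down to Pigr, the range of every gene overlapped that of its neighbour in this order. Within libraries, Scgb3a1 was above Bpifa1 in 6 of 6 and Bpifb1 above Pigr in 6 of 6, whereas Bpifa1 was above Muc1 in 4, Muc1 above Reg3g in 5 and Reg3g above Bpifb1 in 5. Muc5b, at 3.69 to 8.77 CPM per kilobase, lay below all libraries of Pigr (12.7 to 29.4). Scgb1a1 had the highest total count of all genes in the table, 1475923, and took 1.86% to 3.05% of the counts of a library, so the 10 genes together took 2.08% to 3.39%.

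No secretoglobin passed the test between genotypes, and they differed from each other in how far the pools varied. Scgb1a1, on the minus strand of chromosome 19 from 9083642 to 9087956 (GRCm38), encodes the club cell secretory protein, also called CC10 or uteroglobin. Its levels were 29035, 18483 and 20938 CPM in WT libraries 1, 2 and 3 and 27206, 23060.4 and 18626 CPM in the KO libraries. High and low libraries occurred in both genotypes, with WT library 2 and KO library 3 the lowest and almost alike. The means were 22819 ± 5521 CPM in WT against 22964 ± 4291 CPM in KO (n = 3 pools, SD), a log2 difference of 0.01 (standard error 0.24) with a 95% interval of −0.52 to 0.54. A change of 2-fold in either direction lay outside that interval.
Scgb3a2, whose product is made by club cells and, like SCGB1A1, reaches the airway fluid, had 768, 433 and 628 CPM in WT and 760, 883 and 613 CPM in KO. WT library 2 was the lowest and KO library 2 the highest, while the other 4 lay between 613 and 768 CPM. Means of 610 ± 168 CPM in WT against 752 ± 135 CPM in KO (n = 3 pools, SD) corresponded to 0.30 on the log2 scale (standard error 0.20, interval −0.13 to 0.74). For each 1000 counts of Scgb1a1 there were 23.4 to 38.3 counts of Scgb3a2, a 1.63-fold range.
Scgb3a1, a secretoglobin found mainly in larger airways, lies on the plus strand of chromosome 11 from 49663595 to 49665118. It had 281, 73.6 and 226 CPM in WT and 140, 272 and 255 CPM in KO. Here WT library 2 and KO library 1 were low, and the other 4 libraries lay close together. Its means were 194 ± 108 CPM and 222 ± 71.7 CPM (SD, n = 3 pools), with a log2 fold change of 0.20 (standard error 0.38, interval −0.64 to 1.04). Relative to 1000 counts of Scgb1a1, Scgb3a1 ranged from 3.98 to 13.7 counts, or 3.44-fold, so the pools did not vary alike in both secretoglobins. The 2 RefSeq transcripts of Scgb3a1 had nearly the same counts (3112 and 3052 in WT library 1) and are not independent. Scgb1c1, a relative expressed at a low level (68 to 133 counts), was at 0.22 (standard error 0.24).

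The BPI fold genes Bpifa1 and Bpifb1 varied more between pools than nearly all other genes, and did not pass the test between genotypes. Bpifa1, also named SPLUNC1 or Plunc, encodes a secreted protein of the upper airways and large bronchi that lowers surface tension and acts on bacteria and on the epithelial sodium channel. Its gene has 9 exons and lies on the plus strand of chromosome 2 from 154142880 to 154149217 (GRCm38). Levels were 426, 46.3 and 334 CPM in WT and 97.9, 483 and 360 CPM in KO. WT library 2 and KO library 1 were low and the other 4 were high, so each genotype had 1 low and 2 high pools. The counts behind the low values were 535 and 1059, against 2851 to 5840 in the others, so counting error is small beside these differences. Means of 269 ± 198 CPM in WT against 314 ± 197 CPM in KO (n = 3 pools, SD) gave a log2 fold change of 0.23 (standard error 0.65). The 95% interval, −1.19 to 1.65, allows a change from 2.29-fold lower to 3.13-fold higher in KO.
Bpifb1, also named LPLUNC1, encodes a longer member of the family, secreted by goblet and other mucous cells. It lies near Bpifa1 on chromosome 2, with Bpifa5 between them, from 154190818 to 154220343, in a cluster of 13 family genes between 153875045 and 154320644. Its 112, 28.0 and 53.6 CPM in WT and 45.3, 117 and 96.0 CPM in KO put WT library 2 lowest and KO library 1 next. The 6 libraries came in the same order for Bpifb1 and Bpifa1, from KO library 2 at the top through WT library 1, KO library 3, WT library 3 and KO library 1 down to WT library 2. Between genotypes Bpifb1 was at 0.41 (standard error 0.42, interval −0.52 to 1.35), from means of 64.7 ± 43.3 CPM and 86.2 ± 37.0 CPM (SD, n = 3 pools). Without WT library 1 its log2 fold change rose to 1.09, still short of the threshold (adjusted p = 0.9996, edgeR's quasi-likelihood test).
Most neighbours in the cluster were silent in these lungs. Bpifb2, Bpifb4, Bpifb6, Bpifb9a, Bpifb9b and Bpifa5 had 0 counts in each library, as did Bpi, the gene of the human neutrophil protein that gives the family its name. Bpifa2, the salivary member, had 5 to 10 counts, Bpifa3, Bpifa6 and Bpifb3 had 3 at most, and Bpifb5, next to Bpifb1, had 35 to 48 counts and was at 0.02 (standard error 0.24). Outside the cluster, Lbp, which hands bacterial lipopolysaccharide to its receptor, had 64.5 to 77.6 CPM in the 6 libraries and was at 0.14 (standard error 0.10). Pltp, a phospholipid transfer protein of the same fold, had 320 to 453 CPM and was at 0.02 (standard error 0.14). Bpifb5, Lbp and Pltp were the other family genes with enough counts to test, and their ranges over the libraries were narrower than those of Bpifa1 and Bpifb1.

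Reg3g had the same low libraries as Bpifa1. Its range was the widest of the 10 genes over all 6 libraries, at 11.5-fold, and the second widest without WT library 2, at 3.28-fold beside 4.94-fold for Bpifa1. It encodes a C-type lectin that kills Gram-positive bacteria, is best known from the intestine, and is induced in airway epithelium by interleukin 17 and interleukin 22. It lies on the minus strand of chromosome 6 from 78466269 to 78468874, in a cluster of 6 Reg genes, and has 6 exons. Its levels were 78.6, 6.84 and 43.6 CPM in WT and 23.9, 76.3 and 54.0 CPM in KO. WT library 2 was lowest by far, KO library 1 was next, and the high libraries came from both genotypes. The lowest value rests on 79 counts, with an exact Poisson interval of 62.5 to 98.5 that covers counting error only. Means of 43.0 ± 35.9 CPM and 51.4 ± 26.3 CPM (SD, n = 3 pools) gave a log2 fold change of 0.26 (standard error 0.60, interval −1.05 to 1.58). Of the other genes of the cluster, Reg2, Reg3a, Reg3b and Reg3d had 0 counts in every library, which allows up to 3 counts in each, and Reg1 had 0 to 5. Reg4, of the same family, also had 0. Il17a and Il22, the cytokines named above, had 0 counts in all libraries as well.

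The sequences before the start sites of 4 genes are shown because Bpifa1, Bpifb1 and Reg3g varied most between pools and Muc1 varied least. RefSeq start sites were at hand for 6 of the 10 genes (GRCm38.p6), and each line gives the 165 bases before the start, 5′ to 3′ on the strand of the gene. Capitals mark matches to 5 searched motifs on either strand: a TATA box (TATAAA), FOX (TNTTTAC), AP-1 (TGANTCA), STAT (TTCNNNGAA) and NKX2-1 (CAAGTG). The Bpifb1 line is for its second start, that of the shorter transcript NM_153418, as the window before its first start held no match. It was thus picked for its matches, and the levels of Bpifb1 were read from the longer transcript, which begins at the first start.
Bpifa1: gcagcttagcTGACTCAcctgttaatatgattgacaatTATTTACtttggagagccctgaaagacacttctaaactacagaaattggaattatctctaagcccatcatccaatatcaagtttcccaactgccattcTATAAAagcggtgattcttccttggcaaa
Bpifb1: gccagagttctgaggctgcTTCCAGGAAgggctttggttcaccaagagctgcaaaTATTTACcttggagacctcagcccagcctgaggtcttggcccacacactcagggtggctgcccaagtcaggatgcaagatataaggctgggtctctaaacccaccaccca
Reg3g: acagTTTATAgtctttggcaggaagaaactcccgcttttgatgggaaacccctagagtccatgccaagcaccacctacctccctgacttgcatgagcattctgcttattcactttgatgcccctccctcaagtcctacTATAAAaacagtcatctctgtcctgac
Muc1: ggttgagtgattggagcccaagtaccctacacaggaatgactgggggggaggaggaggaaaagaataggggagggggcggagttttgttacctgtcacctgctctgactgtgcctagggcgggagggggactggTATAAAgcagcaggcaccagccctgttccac
In Bpifa1 the TATA box match lies 29 to 24 bases before the start, the FOX match 127 to 121 and the AP-1 match 155 to 149 bases before it. Bpifb1 has the same 7 letters, TATTTAC, at the FOX match 110 to 104 bases before its second start, and a STAT match at 146 to 138. Reg3g has a TATA box match at 27 to 22 and 1 on the other strand at 161 to 156, and Muc1 has 1 at 31 to 26. In windows of 250 bases before the start of 32851 mouse start sites, 12.4% held the TATA box letters, 10.9% FOX, 6.75% AP-1, 7.02% STAT and 11.6% NKX2-1. In such a window of Scgb3a1, a STAT match stood 194 to 186 bases before the start and an NKX2-1 match 174 to 169, and Pigr had no match. These are matches of letters and not measured binding sites.

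Neither mucin passed the test between genotypes, and Muc5b varied more between pools than Muc1. Muc5b, the gel-forming mucin that clears the airways of mice at rest, lies on the plus strand of chromosome 7 from 141839059 to 141873089 and has 49 exons. It had 127, 55.2 and 80.3 CPM in WT and 74.0, 131 and 131 CPM in KO. The same libraries as for Bpifa1 were the lowest, WT library 2 and then KO library 1, over a smaller range of 2.38-fold. Means were 87.6 ± 36.6 CPM and 112 ± 32.8 CPM (SD, n = 3 pools), and the fold change was 0.35 on the log2 scale (standard error 0.28, interval −0.25 to 0.96).
Muc1, a mucin anchored in the membrane of airway and alveolar cells, lies on chromosome 3 from 89229056 to 89233381. It had 204, 225 and 191 CPM in WT and 208, 231 and 240 CPM in KO, so all 6 libraries were within 1.25-fold and neither WT library 2 nor KO library 1 was low. This was the most even of the 10 genes, and 77.6% of all genes tested had a larger spread. Its difference between genotypes was 0.13 (standard error 0.11, interval −0.11 to 0.37), from 207 ± 17.1 CPM and 226 ± 16.7 CPM (SD, n = 3 pools).
Muc5ac, the gel-forming mucin of goblet cells, had 5.43, 1.38 and 2.92 CPM in WT and 1.85, 3.72 and 2.66 CPM in KO, low again in WT library 2 and KO library 1. It was at −0.23 (standard error 0.43) between genotypes, or −0.62 without WT library 2, while the membrane mucins Muc4 and Muc20 were at 0.00 and 0.17. Muc2, the mucin of the intestine, Muc13 and Muc15 had 6 counts at most in any library, too few for a difference to be detectable.

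Pigr and Hp did not pass the test between genotypes either. Pigr, the receptor that carries polymeric IgA and IgM across the epithelium, lies on chromosome 1 from 130826684 to 130852249 and has 11 exons. Its levels were 113, 49.1 and 59.1 CPM in WT and 74.3, 89.9 and 69.3 CPM in KO. One library, WT 1, was high and the KO libraries all lay inside the WT range. The means of 73.8 ± 34.6 CPM and 77.8 ± 10.7 CPM (SD, n = 3 pools) differed by 0.07 on the log2 scale (standard error 0.25, interval −0.48 to 0.63). Without WT library 1, Pigr was 0.53 higher in KO (unadjusted p = 0.00561, adjusted p = 0.9996, edgeR's quasi-likelihood test), and its SD between pools fell from 0.47 to 0.19.
Hp encodes haptoglobin, which binds free haemoglobin and is made in the liver and in lung epithelium. It lies on the minus strand of chromosome 8 from 109575128 to 109579172. Levels were 1187, 936 and 1105 CPM in WT and 1238, 1211 and 935 CPM in KO, within 1.32-fold, and the lowest libraries, WT 2 and KO 3, were from different genotypes. Means of 1076 ± 128 CPM and 1128 ± 168 CPM (SD, n = 3 pools) gave 0.07 (standard error 0.15, interval −0.26 to 0.40). Alb, albumin and the most abundant product of liver, had 4 to 26 counts per library, and Fgb, fibrinogen beta, had 0 in each, while Hp had 9444 to 14635. Relative to Scgb1a1, Hp had 40.9 to 52.8 counts for each 1000, a 1.29-fold range.

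**Figure D2:**
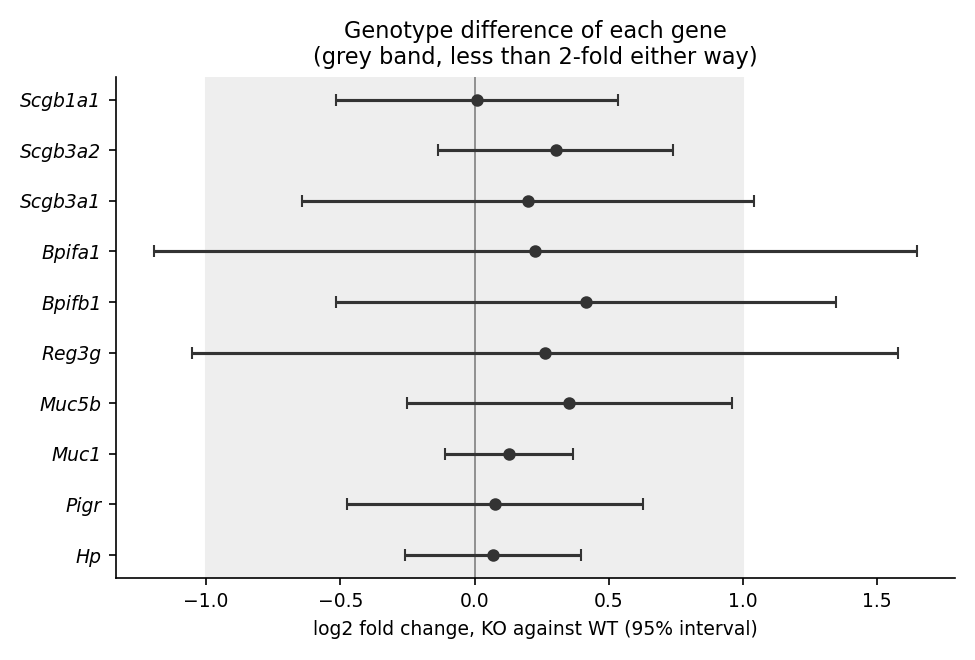
Log2 fold change of each gene, KO against WT (x axis; points, estimates of edgeR's quasi-likelihood fit; bars, 95% intervals), with a grey band for changes of less than 2-fold. Every interval includes 0, and those of Bpifa1, Reg3g, Bpifb1 and Scgb3a1 reach beyond the band.

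For 6 of the 10 genes the 95% interval left out a 2-fold change in either direction, as it did for 93.2% of all genes tested. The exceptions were Scgb3a1, Bpifa1, Bpifb1 and Reg3g, for which these 3 pools per genotype cannot tell a 2-fold rise in KO from no change. A 2-fold fall was also inside the interval for Bpifa1 and Reg3g, but not for Scgb3a1 and Bpifb1.

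Most of the 10 genes had a larger spread between pools than the median gene, and Muc1 had a smaller one. The SD of log2 CPM between pools of 1 genotype was 1.51 for Bpifa1 and 1.42 for Reg3g, against a median of 0.17 over all genes tested. It was 0.87 for Bpifb1, 0.82 for Scgb3a1, 0.54 for Muc5b, 0.47 for Pigr, 0.35 for Scgb3a2, 0.31 for Scgb1a1, 0.20 for Hp and 0.11 for Muc1. Of the 14802 genes tested, 18 had a larger SD than Bpifa1, 22 than Reg3g, 83 than Bpifb1 and 102 than Scgb3a1. Among the 4942 genes at or above the level of Reg3g, the lowest of the 10, those numbers were 3, 4, 10 and 12, and the median SD was 0.14. Genes such as Krt13, with more than 5 counts in 1 library only, had been removed by the filter on low counts and are not in this ranking. Some other airway genes had as large a spread, such as Agr2, described with the nearest profiles, and the median SD was 1.33 for the 5 tested markers of skeletal muscle and 0.76 for 10 markers of neutrophils. The SD rests on 4 degrees of freedom, and no test was made of it.
WT library 2 carried part of this spread. Without it, the SD was 1.01 for Bpifa1, with 33 genes above it, 0.78 for Reg3g (82 genes), 0.73 for Bpifb1 (115 genes) and 0.45 for Scgb3a1 (774 genes). Within the KO libraries alone, the SD was 1.23 for Bpifa1 and 0.85 for Reg3g, against a median of 0.16, and Bpifa1 still differed 4.94-fold and Reg3g 3.19-fold between the highest and the lowest KO pool. With any 1 library left out, the SD was 0.10 to 0.13 for Muc1 and 0.14 to 0.23 for Hp.

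**Figure D3:**
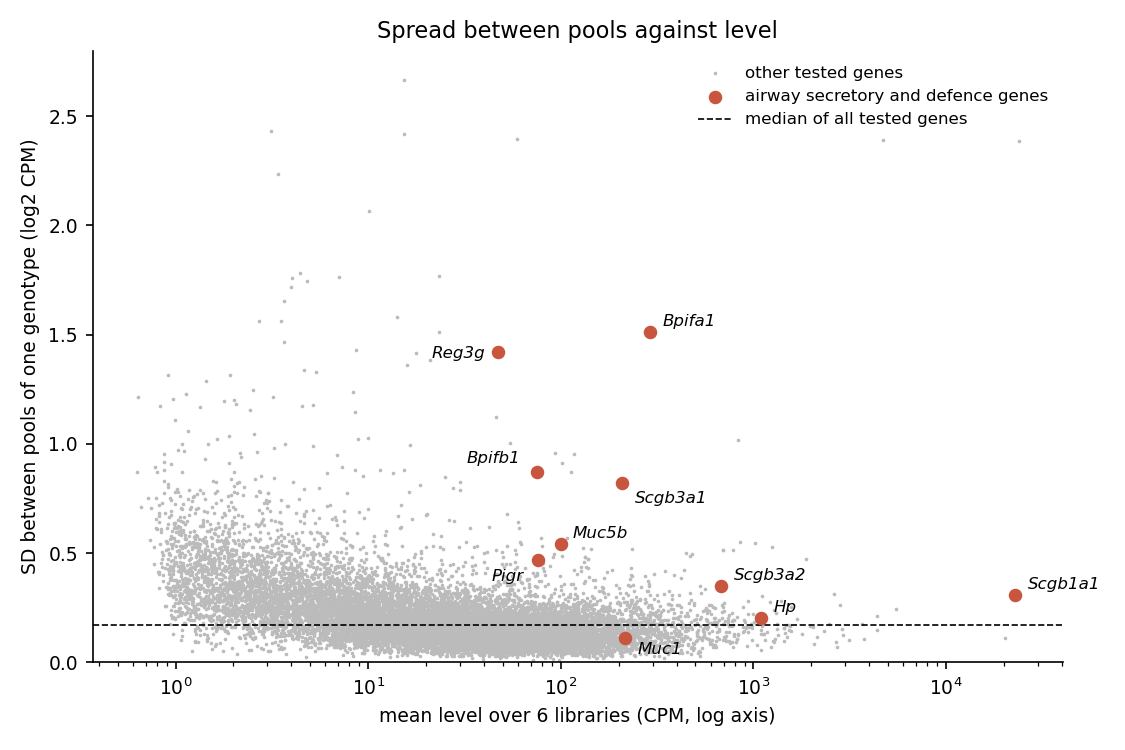
SD of log2 CPM between pools of 1 genotype (y axis) against mean level in CPM (x axis, log scale) for all 14802 genes tested (grey) and the 10 airway genes (red), with the median SD of 0.17 as a dashed line. Bpifa1 and Reg3g lie above most other genes of their level, and Muc1 lies below the median.

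The genes fell into 3 patterns over the 6 libraries. Bpifa1, Bpifb1, Reg3g, Scgb3a1 and Muc5b were lowest in WT library 2 and next lowest in KO library 1. Scgb1a1, Scgb3a2 and Pigr were lowest in WT library 2 but had middling to high values in KO library 1. Muc1 and Hp varied little. Over the 15 pairs of libraries, Bpifa1 and Bpifb1 were ordered alike in 15, Scgb3a1 and Reg3g in 15, and Bpifa1 and Reg3g in 14, whereas Bpifa1 and Muc1 were ordered alike in 8. All genes were read from the same 6 libraries, so these counts are descriptions. WT library 2 was the lowest library for 8 of the 10 genes and for 19.4% of all genes tested.
Ratios between genes, which do not depend on the scaling of the libraries, showed the same. Bpifa1 had 14.7, 2.51 and 15.9 counts for each 1000 of Scgb1a1 in WT and 3.60, 21.0 and 19.4 in KO, an 8.37-fold range. WT library 2 and KO library 1 were thus low in Bpifa1 also relative to the club cell gene, and the other 4 were close to each other. Reg3g for each 100 counts of Bpifa1 had a range of only 1.87-fold, from 13.1 to 24.5 counts.

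**Figure D4:**
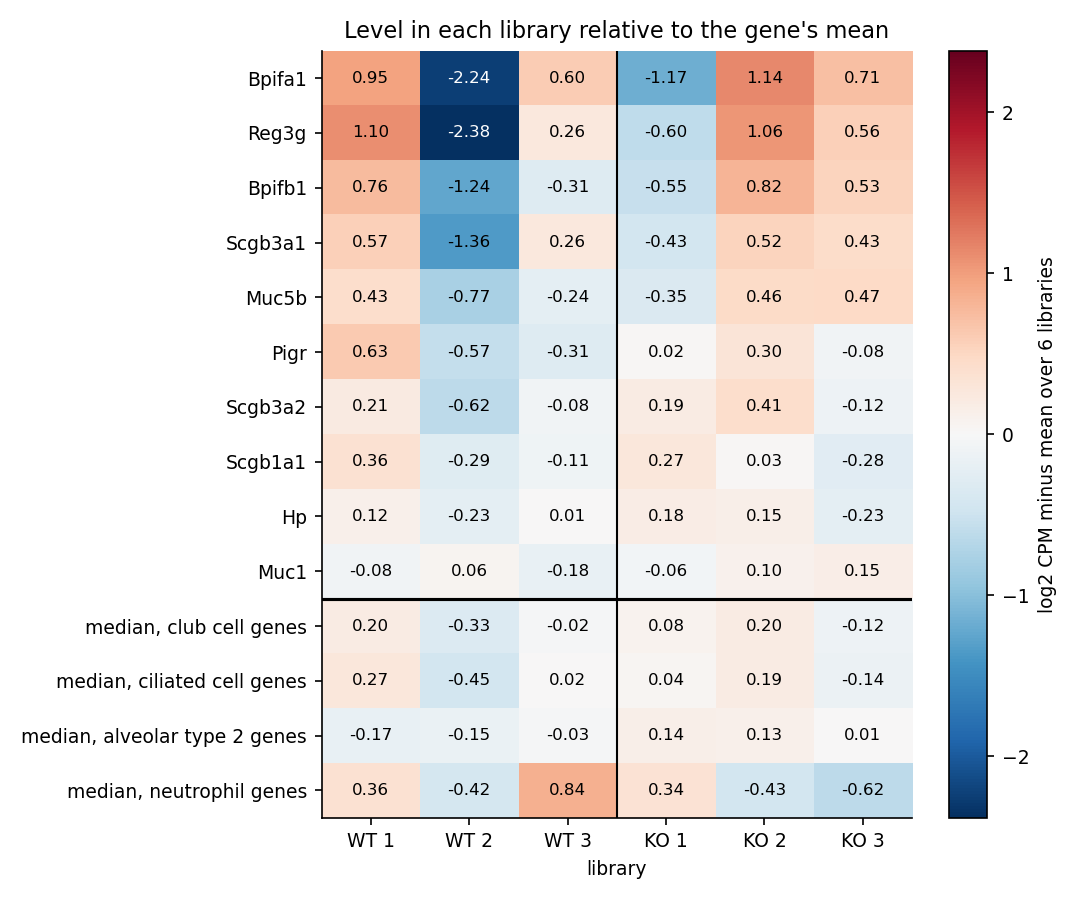
Log2 CPM of each gene in each library minus its mean over the 6 libraries (rows, genes; columns, WT 1 to 3 and KO 1 to 3; blue, below the mean; red, above it), with the median of 4 marker lists under the line. Bpifa1 and Reg3g reach −2.24 and −2.38 in WT library 2 and −1.17 and −0.60 in KO library 1, while the medians of club and ciliated cell genes reach −0.33 and −0.45 in WT library 2 and stay near 0 in KO library 1.

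Markers of other cells moved with these patterns only in part. Of 21 tested genes of ciliated cells, which line the same airways, 17 were lowest in WT library 2 and 14 were highest in WT library 1. Their summed level was 2509 to 3043 CPM in WT and 2828 to 3360 CPM in KO, and KO library 1, at 3067 CPM, was not low. Of 22 tested club cell genes, 15 were lowest in WT library 2, with sums of 7520 to 9790 CPM in WT and 8122 to 10149 CPM in KO, the last of these in KO library 1. These sums are set by a few abundant genes, such as Sec14l3, at 2133 CPM in KO library 1. By gene, the median log2 deviation in KO library 1 was 0.08 for club and 0.04 for ciliated markers. There 2 of the 22 club cell genes and 1 of the 21 ciliated cell genes were lowest. Bpifa1 and Reg3g were thus low in KO library 1 while most club and ciliated markers were not.
The markers of skeletal muscle stood out in WT library 2, where 5 of 5 tested genes were highest, at a sum of 135 CPM against 19.9 to 24.2 CPM elsewhere. Markers of fat summed to 256 CPM there against 78.3 to 149 CPM elsewhere, with 5 of 7 tested genes highest. Krt5, a keratin of basal cells, had 17.7 CPM against 1.74 CPM at most in the others. Of 4 tested basal and squamous genes, 2 were highest there, whereas Aqp3 had 4.07 CPM in WT library 1 as well. Ngfr was highest in KO library 3, at 2.26 CPM against 1.90 CPM in WT library 2. The part of these markers in the low airway genes of that library was not tested. KO library 1 was not high in markers of muscle or fat: its sum was 20.8 CPM for muscle and 78.3 CPM for fat. It was the lowest library for 6 of 7 tested fat genes and 2 of 5 tested muscle genes. Of the 4 basal and squamous genes, 2 were lowest there, Krt5 (0.185 CPM) and Aqp3 (0.832 CPM). Any link of these to the low airway genes of KO library 1 was not tested. Of 14 markers of tracheal glands, 9 were at 0 in each library, among them Lpo, Prol1, Pip and Bpifb2. Lactoferrin (Ltf), in glands and in neutrophils, had 66.0, 15.1 and 33.0 CPM in WT and 17.6, 82.1 and 63.9 CPM in KO, and Tff2, a trefoil factor, 9.50, 2.08 and 7.60 CPM and 4.99, 10.2 and 9.74 CPM. Both were low in WT library 2 and KO library 1. The other tested gland markers were not: Aqp5 was high in WT library 2 (253 CPM, against 193 to 263 CPM in the others), Lyz1 was lowest in WT library 2 (790 CPM) but not in KO library 1 (864 CPM), and Azgp1 was lowest in KO library 3. Markers of neutrophils, 10 of them, summed to 469, 248 and 693 CPM in WT and 465, 305 and 255 CPM in KO. Their sum was lowest in WT library 2 and nearly as low in KO library 3, while KO library 1 was not low. By gene, 6 of the 10 were lowest in KO library 3 and 2 in WT library 2.

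Genes with profiles over the 6 libraries like those of the 3 most variable members were looked up as a description. Likeness was the root mean square difference of log2 CPM after each gene was centred on its own mean. For Bpifa1 the nearest 5 were Reg3g (0.29), Slc5a8 (0.40), Agr2 (0.43), Gp2 (0.45) and Slc13a2 (0.49). For Reg3g they were Agr2 (0.25), Bpifa1 (0.29), Gp2 (0.36), Slc5a8 (0.37) and Pcp4 (0.42). Agr2, a disulfide isomerase needed to make mucins, had 5.16, 0.173 and 2.92 CPM in WT and 1.39, 4.55 and 2.16 CPM in KO. It was thus lowest in WT library 2 and next lowest in KO library 1, on few counts. For Bpifb1 the nearest 5 were Lca5l (0.23), Steap1 (0.27), Morn5 (0.27), Ltf (0.27) and Scgb3a1 (0.28). In WT library 2, Slc5a8, Gp2 and Steap1 had 0.173 CPM, Slc13a2 had 0.260 CPM and Pcp4 had 0.0865 CPM. Their likeness thus rests on few counts as well. None of the genes named as nearest passed the test between genotypes.

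Lists of related airway genes held 0 genes that passed the test between genotypes in edgeR, and 0 of their tested genes had an unadjusted p under 0.05. DESeq2, limma-voom and the exact test in edgeR called 0 of them as well. With WT library 2 left out, edgeR again called 0. In that fit, 350 of all 14892 genes tested had an unadjusted p under 0.05 in edgeR. Among them were 3 antimicrobial genes, 1 mucin and goblet cell gene and 1 signal gene. These antimicrobial genes included S100a8 and S100a9, which are also in the neutrophil list. The smallest p of these airway list genes, 0.00087 in edgeR, was that of Il1b, at a log2 fold change of −1.03. Of 22 club cell genes, 18 were higher and 4 lower in KO, with a median log2 fold change of 0.09 beside 0.00 for all genes. Without WT library 2 this turned, to 8 higher and 14 lower and a median of −0.03. Cyp2f2, a cytochrome P450 abundant in club cells, was at 0.06 (standard error 0.15). Of 14 mucin and goblet cell genes, 5 were higher and 9 lower, at a median of −0.03 (3 higher and 11 lower without WT library 2, at −0.18), with Slc26a4, the anion exchanger pendrin, at −0.44 (standard error 0.24). Of 18 antimicrobial and antiprotease genes, 13 were higher and 5 lower, at a median of 0.08 (11 and 7 without WT library 2, at 0.05). Slpi, an inhibitor of neutrophil elastase, was at −0.73 (standard error 0.35), or −0.17 without WT library 2. Chi3l1, a chitinase-like protein, was at 0.45 (standard error 0.28), or 0.13 without that library.
Slpi was high in WT library 2, at 107 CPM against 25.9 to 55.7 CPM in the others, so it ran opposite to Bpifa1 and Bpifb1 in that library. Lcn2, a lipocalin that withholds iron from bacteria, was at 0.05 (standard error 0.16).
Of 10 genes of the antibody route that Pigr serves, 3 were higher and 7 lower, at a median of −0.14. The numbers were 5 and 5 without WT library 2, at −0.09. Igj, the joining chain that Pigr recognises, had 35.0, 32.9 and 43.1 CPM in WT and 40.2, 20.4 and 8.66 CPM in KO, and was at −0.67 (standard error 0.37). KO library 3 was low and KO library 1 was within the WT range. Of 13 acute phase and haemoglobin clearance genes, to which Hp is related by function, 8 were higher and 5 lower, at 0.02 (5 higher and 8 lower without WT library 2, at −0.04), and Cd163, the receptor for haptoglobin bound to haemoglobin, was at 0.14 (standard error 0.16).
Among 24 genes of the signals that induce these defence genes, 9 were higher and 15 lower, at −0.05. These became 10 and 14 without WT library 2, at −0.04. Il17ra, a receptor subunit for interleukin 17, was at −0.22 (standard error 0.10, unadjusted p = 0.0600 in edgeR). Cebpd, a transcription factor of the acute phase, had 200 CPM in KO library 1 against 94.1 to 120 CPM in the others. Of 19 regulators of secretory cells, 11 were higher and 8 lower, at 0.01 (13 and 6 without WT library 2, at 0.10). Nkx2-1, the lung transcription factor that drives the secretoglobins, was at 0.00 (standard error 0.14), and 2 libraries, WT 2 at 216 CPM and KO 3 at 225 CPM, were its highest. The BPI fold list had 3 tested genes, all within 0.14, and the Reg list had none. In the lists of other cells, genes with an unadjusted p under 0.05 included Krt5 in basal cells, S100g in alveolar type 2 cells, Padi4 and Mmp9 in neutrophils, 4 genes of skeletal muscle and 3 of fat. Without WT library 2 there was 1 of skeletal muscle and 1 of fat, and Krt5 moved from −2.53 to −0.18. Neutrophil genes with such a p then rose to 7 of 10, S100a8 and S100a9 among them, where 350 of all 14892 genes had one. Of the 10, 8 were lower in KO, at a median of −0.78. Plasma and B cell genes had 2 of 7, with all 7 lower in KO, and 0 genes of either list were called.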

How the data were processed

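RNA-seq was made from whole lungs of WT and TSPO KO mice, 3 libraries per genotype. The authors aligned paired-end reads to mm10 with TopHat, per the labels, and deposited whole counts per transcript, not normalized, for 31176 RefSeq transcripts and 33353 FANTOM3 clones. For the counting tool, its strand setting and its treatment of shared reads, nothing is given in the sources used here. Without a known strand, reads of overlapping genes cannot be told apart. FANTOM3 clones were used in an alternative only. All 6 sample columns were mapped by their labels, and groups follow the genotype in the labels. Totals over all entries were 16180108 to 19453607 counts per library. Spreadsheet dates had replaced 49 gene names, of which 48 were restored by their RefSeq identifier.

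Each gene was represented by its RefSeq transcript with the largest total. KO was compared with WT by edgeR 4.0.16 (R 4.3.3, quasi-likelihood test, TMM scaling, Benjamini-Hochberg adjustment, threshold 0.05). filterByExpr (minimum count 10, minimum total 15) left 14802 of 23473 genes, including all 10 airway genes. CPM were computed from TMM-scaled totals, and the spread between pools as the SD of log2 CPM (prior count 2) around the mean of each genotype. Exact permutation tests used scipy 1.17.1. The pipeline was tested on simulated data. Alternatives included DESeq2 1.42.0, limma 3.58.1 (voom), other scalings and filters, sums of transcripts, each entry tested by itself, a block by replicate number, and each library left out in turn. Lists of related genes and of cell markers held 293 symbols, of which 280 were found.

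The 10 genes and the lists were chosen with earlier results of these data known. Genes named are the 10, Tspo, their relatives by family, up to 3 genes of smallest p in each list, and for the 3 most variable genes the 5 nearest profiles. Genes outside this rule, such as Krt4, Krt13, Acta1, Ucp1, Clca3, Retnla, Fcgbp, Cyp2f2 and Nkx2-1, were named after the tables were seen. Positions are those of RefSeq on GRCm38, the assembly of mm10, and exon numbers and lengths those of GENCODE vM21. The p-values of edgeR set the difference between genotypes against the spread between pools, which is estimated with information shared over genes. Not every gene under this rule is reported here.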

Additional observations from a re-analysis of the deposited data

How the results depend on the processing

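Of the 10 genes, 0 passed the threshold under any alternative that was run. The number of all genes called was 1, Tspo, except without WT library 1, where Gdpd3 was added, so that it ranged from 1 to 2 with a library left out. The direction of the differences was less stable. All were higher in KO under the other scalings, filters, tools and ways of counting transcripts, with medians from 0.21 to 0.33 (Scgb1a1 could not be given without the 20 most abundant genes, to which it belongs). With a library left out, the median ran from −0.07 (without WT library 2) to 0.55 (without WT library 1), and the number higher in KO was 4 without WT library 2, 8 without WT library 3 or KO library 1, and 7 without KO library 2. The log2 fold changes that turned ran from −0.13 to 0.22 for Scgb1a1, −0.19 to 0.57 for Scgb3a1, −0.27 to 0.73 for Bpifa1, −0.25 to 1.07 for Reg3g, −0.15 to 0.53 for Pigr and −0.022 to 0.19 for Hp, while Scgb3a2 (0.11 to 0.50), Bpifb1 (0.05 to 1.09), Muc5b (0.11 to 0.73) and Muc1 (0.08 to 0.19) stayed above 0. Without WT library 1, edgeR gave unadjusted p-values of 0.00561 for Pigr, 0.0161 for Bpifb1, 0.0162 for Muc5b and 0.0294 for Scgb3a2, each with an adjusted p of 0.9996. In that fit, 313 of all 14918 genes tested had an unadjusted p under 0.05 in edgeR. A block by replicate number gave 0 calls among the 10 and a median of 0.33. The deviations of samples with the same number had correlations of 0.13, −0.23 and −0.27 over genes, against −0.22 to 0.39 with different numbers. With 3 pools per genotype, these values cannot tell whether the numbers pair the pools, which is not stated. With 79 counts or more of each gene in every library, counting error is small beside the differences between pools.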

Other observations

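The goblet cell gene Clca3, a secreted protein of mucous granules, varied more between pools than any of the 10 airway genes, at 204, 2.51 and 23.0 CPM in WT and 66.7, 48.2 and 11.8 CPM in KO. It was lowest in WT library 2, like Bpifa1, but KO library 3 and not KO library 1 was next. Fcgbp, a mucin-binding protein, had 22.9, 3.29 and 5.26 CPM in WT and 8.50, 11.6 and 8.36 CPM in KO. Retnla, a resistin-like protein of airway epithelium and macrophages, had 225, 50.7 and 84.5 CPM in WT and 151, 100.1 and 68.1 CPM in KO. All of these were highest in WT library 1 and lowest in WT library 2, in the same genotype, and none passed the test between genotypes (adjusted p = 0.9999 for each, edgeR's quasi-likelihood test).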
